A study of Mus musculus with 7 samples.

Results

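The genes described here make, break down and read the cyclic nucleotides cAMP and cGMP. Members were taken by gene symbol alone: the adenylyl cyclases (Adcy), the guanylyl cyclases (Gucy1 and Gucy2), the phosphodiesterases (Pde followed by a number and a letter), the subunits of protein kinase A (PKA; Prkac and Prkar) and the cGMP-dependent kinases (Prkg). The rule found 51 genes among the 22180 measured. Of these 23 are phosphodiesterase subunits, 9 adenylyl cyclases, 9 guanylyl cyclases and 8 kinase subunits. Both remaining genes, Pde4dip and Pde6d, carry a phosphodiesterase name but encode a scaffold protein and a lipid-binding chaperone. Adcy3, whose probe set is shared with another gene, is not analysed here.

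Pancreatic islets of mice were profiled on 7 Affymetrix whole-transcript arrays. On 3 of them, the controls, the animals had floxed Gata6 alleles (Gata6 flox/flox) but lacked Cre. The other 4 arrays, labelled Gata6 KO, came from Gata6 flox/flox animals that also bore Pdx1-Cre, so all animals shared the floxed alleles and the groups differed by the transgene as well. Each array held islets of 3 mice aged 2 months. The Pdx1 promoter is active in the early pancreatic epithelium, which gives rise to endocrine, acinar and duct cells, so the transgene is not limited to islets.

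In endocrine cells of the islet, cAMP is made by adenylyl cyclases when hormones such as GLP-1 act on receptors coupled to stimulatory G proteins. It raises insulin release through PKA and the exchange factor EPAC, and phosphodiesterases end the signal. PKA is held inactive by its regulatory subunits until cAMP binds them and the catalytic subunits are set free. The second messenger cGMP is made by soluble guanylyl cyclase, which senses nitric oxide, and by membrane guanylyl cyclases, some of which sense peptides. It acts in part through the Prkg kinases.

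Values are log2 signals, and a difference is the mean of the arrays labelled Gata6 KO minus the mean of the controls. Across all genes the median difference was 0.17, and the median signal of an array was 2.23 to 2.26 among the controls and 2.38 to 2.57 in the other group. Differences are therefore given minus this median, as relative differences, while SE and p belong to the unshifted difference. A gene was called at a Benjamini-Hochberg adjusted p under 0.05 in limma over all genes. Of the genes called, 70.2% were higher, a share that was 40.3% once array medians were subtracted (centring) and 49.6% with quantile normalization run again (repeated quantile normalization).

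Gata6 itself had no lower signal in the group labelled Gata6 KO: it read 4.60, 4.80 and 4.83 on the controls and 5.41, 5.35, 5.34 and 5.01 on the others. Where its probes lie is not known here, and a probe set outside the deleted part checks nothing. Xist was low on control array 3 (1.34) and on array 3 labelled Gata6 KO (2.15) and above 5 on the other arrays. All 6 beta-cell and all 3 alpha-cell markers were called lower. The mean signal of the beta-cell list was 8.29 to 8.91 in the controls and 5.27 to 6.94 in the other group. Of the endothelial markers 4 of 6 were lower, with list means from 5.23 to 5.76 on the controls and from 3.86 to 4.77 on the others. Of 10 acinar markers 5 were higher and 0 lower, with list means of 9.25 to 9.38 in the controls and 10.2 to 10.3 in the other group. Cela1, Ctrb1, Cpa1 and Cel, which were not called, read 12.95 or more on every array, near the highest value of any probe set (13.5). These acinar genes were thus bright on the controls too, where Ins2 read 8.74 to 9.91. Bhlha15, which was not called either, lay far lower, at 5.79 to 6.43 on the controls and 5.99 to 6.62 on the others. Of 7 mesenchymal markers 5 were higher, with overlapping list means. Of the other markers 2 of 5 macrophage and 2 of 4 lymphoid genes were higher, and 1 of 4 ductal, 1 of 3 glial and neuronal and 2 of 3 delta and PP genes were lower. No marker had a signal at or below 0 on any array.

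In the islets labelled Gata6 KO, 8 of the 51 cyclic nucleotide genes fell and 6 rose. The falls were the larger changes: the cGMP phosphodiesterase Pde5a, the PKA regulatory subunit Prkar1b and the guanylin receptor Gucy2c fell most, followed by Pde8a, Pde4b, Prkar2b, Prkaca and Pde7b. Every fall was at least 2-fold relative to all genes and every rise was below 2-fold. After centring, and after repeated quantile normalization, 0 members were called higher. Of the 8 falls, 6 kept their call under every alternative run, against 0 of the 6 rises. The 8 falls are 15.7% of the members, against 7.36% of all genes called lower. The 6 rises are 11.8% of the members, against 17.4% of all genes called higher, and 24.7% of all genes were called in either direction. The median relative difference of the 51 genes was 0.02, where that of all genes is 0 by construction. Because islets are a mixture of cells, fewer cells of a type and less RNA per cell cannot be told apart in these values. The part of the marker differences above in these falls and rises was not tested.

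**Figure D1:**
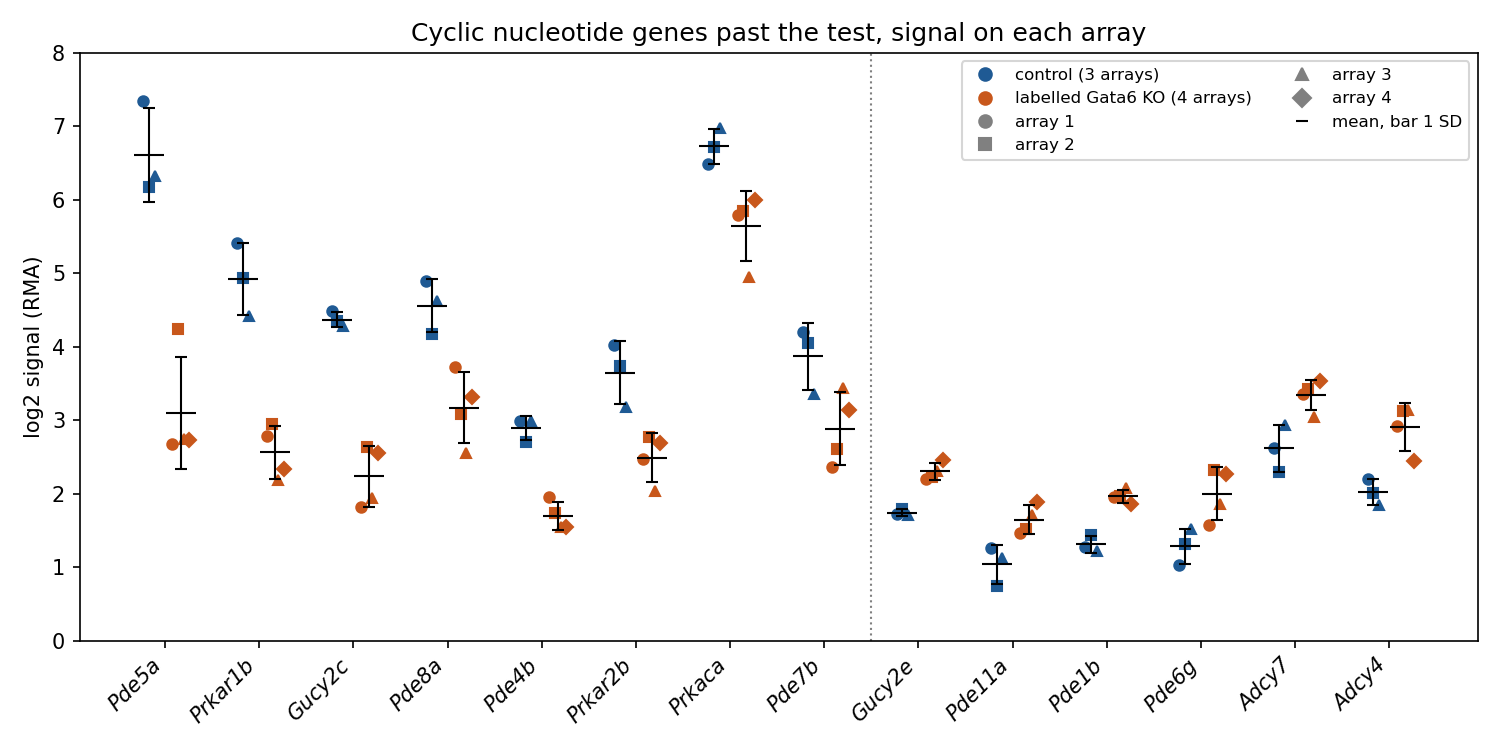
Log2 signal of the 14 cyclic nucleotide genes past the test on each of the 3 control arrays (blue) and the 4 arrays labelled Gata6 KO (orange), ordered from the most negative to the most positive difference. Black marks are group means with bars of 1 SD. Left of the dotted line the groups are apart for 7 of the 8 genes that fell, Pde7b being the exception. Right of it they are apart for all 6 genes that rose, none of which was called after centring or repeated quantile normalization.

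Of the 23 phosphodiesterase genes 4 fell (17.4%) and 3 rose (13.0%), against 7.36% and 17.4% of all genes. Pde5a changed most among them. It encodes the cGMP-specific enzyme that sildenafil inhibits. The controls read 7.35, 6.18 and 6.32 on the log2 scale, and the arrays labelled Gata6 KO 2.68, 4.24, 2.75 and 2.73. Every control was above every array of the other group, in which array 2 stood apart above the rest. The relative difference was -3.68 (SE 0.37, limma adjusted p = 2.25e-05), a 12.9-fold lower level, and only 9 of the 22180 genes had a more negative one.

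The other phosphodiesterases that fell are all specific for cAMP. Pde8a, a high-affinity enzyme that common inhibitors such as IBMX do not block, read 4.89, 4.17 and 4.62 on the controls and 3.73, 3.09, 2.56 and 3.31 on the others, without overlap. Its relative difference was -1.55 (SE 0.28, adjusted p = 0.00259). Pde4b, a rolipram-sensitive enzyme, read 2.99, 2.71 and 2.99 on the controls and 1.95, 1.74, 1.54 and 1.54 on the others, again without overlap and with little spread in either group. It changed by -1.37 (SE 0.21, adjusted p = 9.06e-04). The arrays labelled Gata6 KO all read below 1.98, the signal that bounds the lowest 40% of genes. Background may therefore limit the size of the measured fall. Pde7b read 4.21, 4.05 and 3.36 on the controls and 2.36, 2.61, 3.44 and 3.14 on the others. Here the groups overlapped, because array 3 labelled Gata6 KO lay above control array 3. The Pde7b difference of -1.15 (SE 0.29, adjusted p = 0.0236) did not pass without control array 1 (adjusted p = 0.118), control array 2 (adjusted p = 0.0970), array 1 labelled Gata6 KO (adjusted p = 0.0566) or array 2 (adjusted p = 0.0604). Its adjusted p ranged from 0.00423 to 0.118 over the alternatives.

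Among the phosphodiesterases 3 rose: Pde1b, a calcium- and calmodulin-activated enzyme, Pde11a, which cleaves both nucleotides, and Pde6g, the inhibitory subunit of the rod photoreceptor enzyme. Their relative differences were 0.49 (SE 0.18), 0.44 (SE 0.19) and 0.55 (SE 0.23), with adjusted p of 0.0163, 0.0319 and 0.0322. Pde1b read 1.28, 1.43 and 1.22 on the controls and 1.96, 1.97, 2.08 and 1.86 on the others. Pde11a read 1.26, 0.75 and 1.12 against 1.46, 1.52, 1.71 and 1.89. Pde6g read 1.04, 1.31 and 1.51 against 1.57, 2.32, 1.85 and 2.27. No groups overlapped, although the margin was narrow for Pde6g. These signals are low: all 3 genes were among the 40% of genes with the lowest mean, under a log2 signal of 1.98. None passed after centring or repeated quantile normalization. The Pde1b call was also lost without control array 1 or 3. That of Pde11a was lost without control array 2 or 3 or array 3 or 4 labelled Gata6 KO. For Pde6g the call was lost without control array 1 or 2 or array 2 or 4 labelled Gata6 KO.

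The remaining 16 phosphodiesterase genes were not called, with relative differences between -0.71 and 0.66. Pde3b, the enzyme that insulin signalling activates, read 6.06, 5.50 and 5.42 on the controls and 5.37, 5.16, 4.77 and 5.18 on the others. Its groups did not overlap, by a margin that was narrow, and the difference of -0.71 (SE 0.23) missed the threshold (adjusted p = 0.0949) but passed after centring (adjusted p = 0.0363) and after repeated quantile normalization (adjusted p = 0.0287). Pde2a, which cGMP stimulates, had the most positive value of the 16, 0.66 (SE 0.30, adjusted p = 0.0618), with arrays 1 and 4 labelled Gata6 KO high and arrays 2 and 3 within the controls. It passed as higher under 5 alternatives: without control array 3 (adjusted p = 0.0492), without array 2 (0.0483) or 3 (0.0308) labelled Gata6 KO, without the lowest 40% of genes (0.0493) and with only arrays of Xist above 4 (difference 1.05, 0.0259). Of other isozymes known from islets, Pde1c measured 0.04 (SE 0.26), Pde8b -0.14 (SE 0.29) and Pde10a -0.17 (SE 0.23). For these the SE exceeded the difference.

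**Figure D2:**
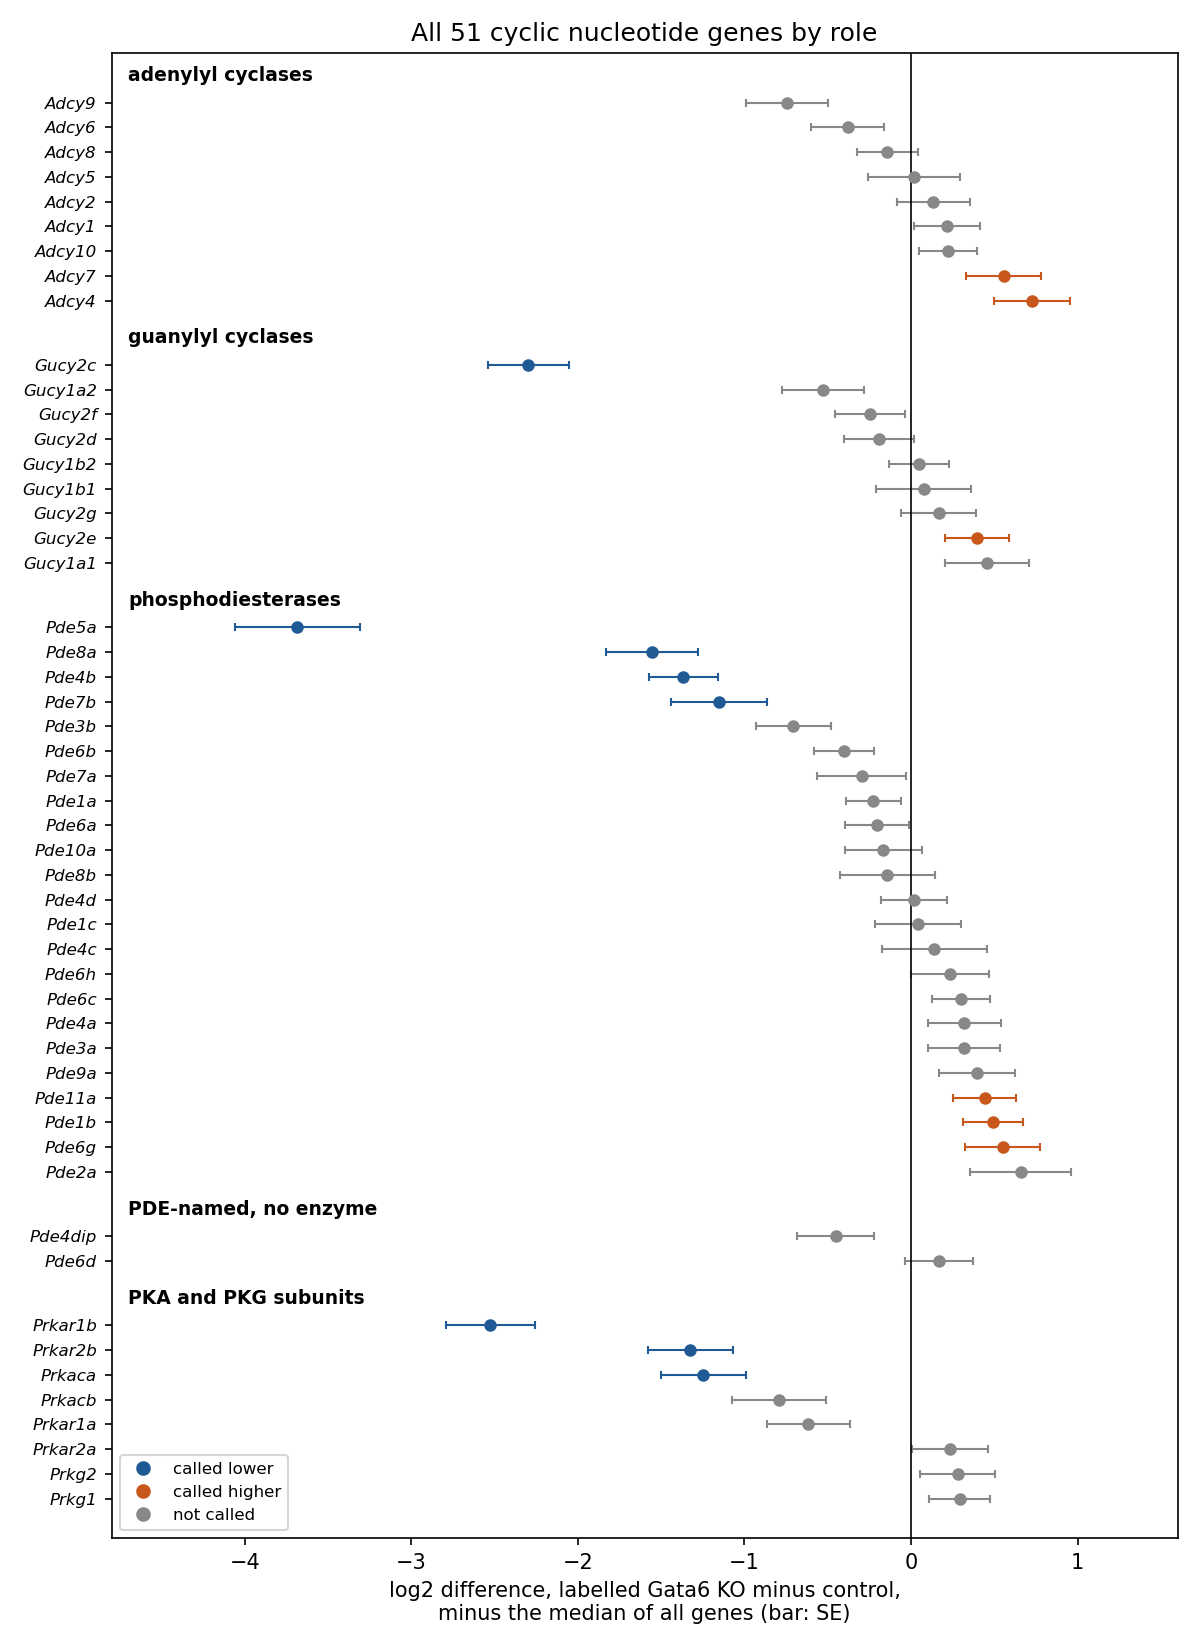
Relative log2 difference (arrays labelled Gata6 KO minus controls, minus the median of all genes) of each of the 51 genes, grouped by role, with bars of 1 SE. Blue points were called lower, orange points higher and grey points were not called. The 8 blue points lie at -1.15 or below and no orange point exceeds 0.73.

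Of the 9 adenylyl cyclases 2 rose (22.2%) and 0 fell, against 17.4% and 7.36% of all genes. Adcy4, stimulated by G protein beta-gamma subunits, read 2.20, 2.01 and 1.85 on the controls and 2.92, 3.13, 3.15 and 2.44 on the others. Adcy7, of the same class, read 2.62, 2.30 and 2.94 on the controls and 3.36, 3.43, 3.05 and 3.54 on the others. Neither gene's groups overlapped, although array 4 was the lowest of its group for Adcy4 and the highest for Adcy7. The relative differences were 0.73 (SE 0.23, adjusted p = 0.0120) and 0.56 (SE 0.23, adjusted p = 0.0307), and neither passed after centring or repeated quantile normalization. The Adcy4 call was also lost without control array 3. That of Adcy7 was lost without control array 1 or 2 or array 2 or 4 labelled Gata6 KO. Adcy9, a broadly expressed cyclase, measured -0.74 (SE 0.24, adjusted p = 0.0990). It passed after centring (adjusted p = 0.0316) and with the replicate number as a block (adjusted p = 0.0498). After repeated quantile normalization it did not pass (adjusted p = 0.0688). Adcy5 and Adcy6, which calcium inhibits, measured 0.02 (SE 0.28) and -0.38 (SE 0.22). Adcy8, which calcium and calmodulin activate, measured -0.14 (SE 0.18), at signals between 0.66 and 1.33 on all 7 arrays.

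Among the 9 guanylyl cyclases 1 fell and 1 rose (11.1% each), against 7.36% and 17.4% of all genes. Both called genes encode membrane cyclases. Gucy2c, the receptor of guanylin and uroguanylin that is best known from the intestine, read 4.48, 4.35 and 4.28 on the controls and 1.82, 2.64, 1.94 and 2.55 on the other group. The controls lay close together and far above the other group, whose values were near or below the medians of its arrays (2.38 to 2.57). The relative difference was -2.30 (SE 0.24, adjusted p = 3.88e-05), a 4.91-fold lower level. Gucy2e, a cyclase of the retina, read 1.72, 1.80 and 1.71 on the controls and 2.20, 2.23, 2.31 and 2.46 on the others. Its relative difference of 0.40 (SE 0.19, adjusted p = 0.0445) did not pass after centring or repeated quantile normalization. The call was also lost on leaving out any control array, or array 2, 3 or 4 labelled Gata6 KO.

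The nitric oxide-sensing subunits were not called. Gucy1a1 read 1.91, 2.07 and 2.03 on the controls and 2.85, 2.85, 2.89 and 1.91 on the others, so that array 4 alone lay at the level of the controls. It measured 0.46 (SE 0.25, adjusted p = 0.0892), and without array 4 labelled Gata6 KO it measured 0.72 and passed (adjusted p = 0.00686). Gucy1a1 also passed in limma with array weights (0.55, adjusted p = 0.0272). With the replicate number as a block, where array 4 has no control of its number, it passed too (0.72, adjusted p = 0.0108). It did not pass after centring (adjusted p = 0.319) or repeated quantile normalization (adjusted p = 0.327). Its partner Gucy1b1 measured 0.08 (SE 0.28). Gucy1a2 and Gucy1b2 measured -0.53 (SE 0.25) and 0.05 (SE 0.18).

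Of the 8 kinase subunits 3 fell (37.5%) and 0 rose, against 7.36% and 17.4% of all genes, and all 3 belong to PKA. Prkar1b, a type I regulatory subunit best known from neurons, read 5.41, 4.94 and 4.42 on the controls and 2.78, 2.95, 2.19 and 2.33 on the others. The lowest control was well above the highest array of the other group. The relative difference was -2.53 (SE 0.27, adjusted p = 3.88e-05), a 5.76-fold lower level.

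Prkar2b, a type II regulatory subunit that anchoring proteins tether, read 4.02, 3.74 and 3.18 on the controls and 2.47, 2.77, 2.03 and 2.69 on the others. It changed by -1.32 (SE 0.26, adjusted p = 0.0050). Prkaca, the main catalytic subunit, read 6.49, 6.72 and 6.97 on the controls and 5.79, 5.85, 4.95 and 6.001 on the others, without overlap, and changed by -1.25 (SE 0.25, adjusted p = 0.00713). Prkaca has a second probe set, which read between 2.01 and 2.54 on the controls and between 2.22 and 2.38 on the others. With the mean of both probe sets the relative difference was -0.70 and did not pass (adjusted p = 0.0770), so the Prkaca call rests on the brighter probe set.

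The other PKA subunits were not called with all arrays and the deposited scaling. Prkacb, the second catalytic subunit, spread widely over the controls at 7.51, 6.65 and 6.11, and measured -0.79 (SE 0.28, adjusted p = 0.119). It passed as lower after repeated quantile normalization (-0.86, adjusted p = 0.0351), and again when control array 3 was left out (-1.13, adjusted p = 0.0302). Prkar1a, the widely expressed type I subunit, read 5.66, 5.45 and 4.69 on the controls and 4.92, 5.001, 4.45 and 4.89 on the others and measured -0.62 (SE 0.25, adjusted p = 0.208). Prkar2a measured 0.24 (SE 0.23). The cGMP-dependent kinases Prkg1 and Prkg2 measured 0.29 (SE 0.18) and 0.28 (SE 0.23), with adjusted p of 0.0825 and 0.164. Both are among the 40% of genes with the lowest mean, where 10.2% of all genes were called higher and only 1.72% lower.

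A call in 1 paralog and none in the other does not show that they differ. The difference was therefore taken within each array for the 8 pairs of paralogs that are the only measured members of their subfamily; these pairs were picked with the values known. Exact permutation over the 35 splits of the arrays, two-sided, has a smallest p of 0.0286, and p was adjusted over the 8 pairs, so no pair could pass unless several reached that floor. Prkar1a minus Prkar1b was 0.25, 0.51 and 0.27 on the controls and 2.14, 2.06, 2.25 and 2.56 on the others. The groups lay far apart, and the difference of 1.91 (SE 0.14) reached the smallest p (exact permutation p = 0.0286, adjusted p = 0.0762). Prkar2a minus Prkar2b differed by 1.56 (SE 0.25) and Pde3a minus Pde3b by 1.03 (SE 0.35), each without overlap and at the same exact permutation p and adjusted p.

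Pde8a minus Pde8b differed by -1.41 (SE 0.45; exact permutation p = 0.0571, adjusted p = 0.114). The groups overlapped for the other pairs: Prkacb minus Prkaca measured 0.45 (SE 0.60), Prkg1 minus Prkg2 0.01 (SE 0.28), Pde7a minus Pde7b 0.85 (SE 0.55) and Pde6g minus Pde6h 0.32 (SE 0.24), with exact permutation p of 0.4, 0.971, 0.2 and 0.286. No pair passed at an adjusted p of 0.05. Leaving out any 1 array, or repeating the quantile normalization, kept the sign for all pairs but Prkg1 and Prkg2. Prkacb minus Prkaca kept its sign only barely, with a range of 0.007 to 0.95 over these alternatives.

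**Figure D3:**
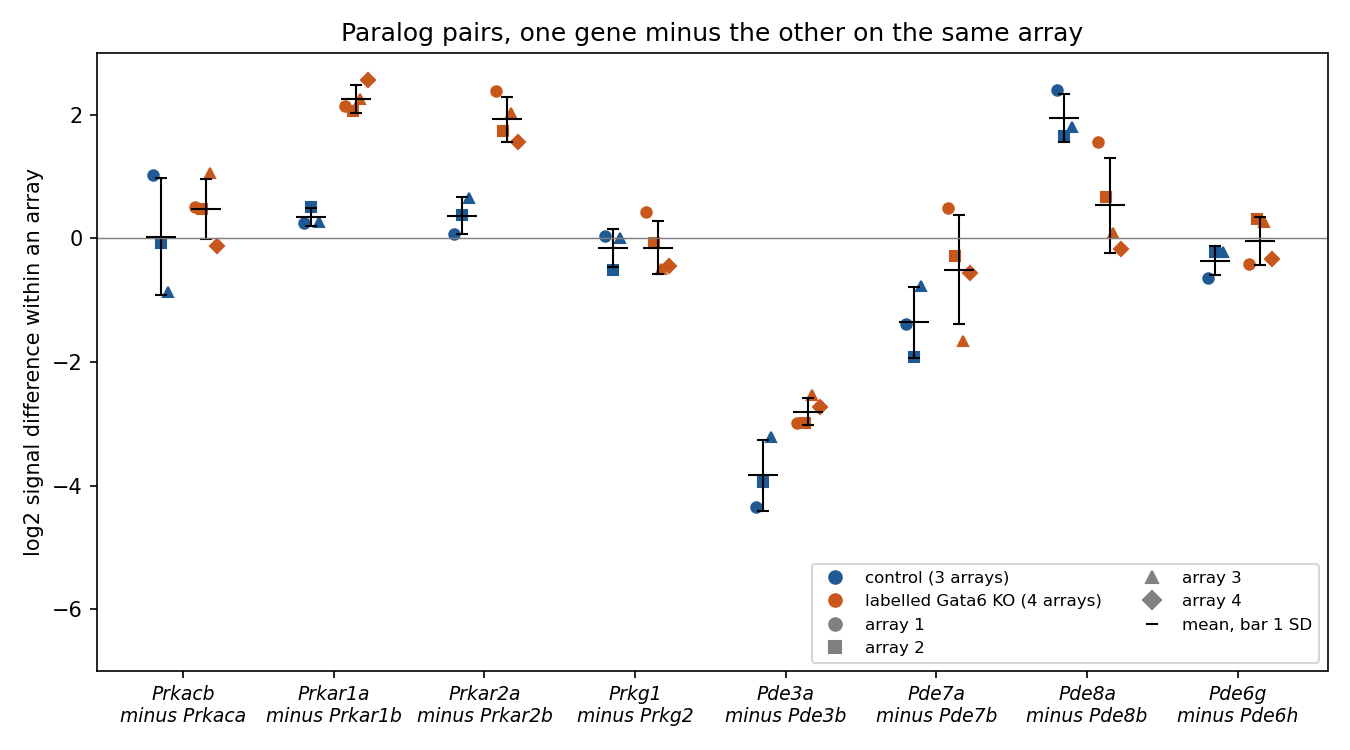
Log2 signal of one paralog minus the other on the same array for 8 pairs, on 3 control arrays (blue) and 4 arrays labelled Gata6 KO (orange), with means and bars of 1 SD. The Prkar1 pair moves from 0.34 to 2.25 and the Prkar2 pair from 0.37 to 1.93 in the group means, with no overlap in either.

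Calls were then counted by mean signal. Of the 32 members above the lowest 40% of genes, 8 fell (25%) and 3 rose (9.38%), against 11.1% and 22.2% of all genes above it. Of the 19 members below it 0 fell (limma; 0 at an unadjusted p under 0.05) and 3 rose (15.8%), against 1.72% and 10.2% of all genes there. Falls were rare at low signal among all genes too. Counted by overlap alone, 8 genes had all arrays labelled Gata6 KO below all controls, 15.7% of the members against 9.96% of all genes. In 10 genes they lay above all controls, 19.6% against 24.4%. The 37 genes that were not called had relative differences from -0.79 to 0.66, and 11 of them had an unadjusted p under 0.05, 8 towards higher and 3 towards lower values.

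Other genes of the pathway were counted in the same fit from lists chosen for their function. For comparison, 7.36% of all genes were called lower and 17.4% higher, and 11.1% and 22.2% of those above the lowest 40% by mean signal. Of 9 G protein alpha subunits 6 fell and 2 rose, with a median relative difference of -1.15. Gnao1, of the inhibitory class and abundant in neurons and endocrine cells, fell by 3.24 on the log2 scale (SE 0.29, adjusted p = 9.03e-06). Its controls lay between 6.23 and 7.04 and the other arrays between 2.96 and 4.23. The inhibitory subunits Gnaz and Gnai2 changed by -1.84 (SE 0.21) and -1.56 (SE 0.26). Gnai1, also inhibitory, rose by 1.30 (SE 0.26, adjusted p = 0.00119) and kept its call after centring and repeated quantile normalization. Gnas, the stimulatory subunit that activates adenylyl cyclase, was named after its values were seen and changed by -1.33 (SE 0.22). It lies in a locus with several overlapping transcripts, and which of them its probes read was not checked.

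Of 3 measured genes for PKA inhibitors and EPAC, 1 fell: Pkia, a peptide inhibitor of the catalytic subunit, changed by -1.04 (SE 0.20, adjusted p = 0.00582). Pkia did not pass on the 5 arrays with high Xist alone. Of 15 A-kinase anchoring proteins, which hold PKA near its substrates, 3 fell and 2 rose, with a median of -0.13. The rises were no larger a share than the 17.4% of all genes called higher, and 7.36% of all genes were called lower. Akap6 changed by -1.75 (SE 0.24, adjusted p = 3.57e-04) and Akap13 by -1.04 (SE 0.21), whereas Akap1, the mitochondrial anchor, and Akap2 changed by 0.79 (SE 0.21) and 0.62 (SE 0.19). The Akap13 call was lost without control array 1 and the Akap2 call on the arrays with high Xist.

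Of 7 measured genes of the CREB family and its coactivators, 3 fell and 1 rose, against 7.36% and 17.4% of all genes. The fallers were coactivators: Ep300, Crtc1 and Crebbp changed by -2.06 (SE 0.30), -1.92 (SE 0.27) and -1.60 (SE 0.36). The Crebbp call was lost without control array 1. Creb1 itself, the factor that PKA phosphorylates, rose by 0.53 (SE 0.22, adjusted p = 0.0350). The call was lost after centring (adjusted p = 0.180) and on the arrays with high Xist (adjusted p = 0.193). It was also lost without control array 2 or 3 or array 1, 3 or 4 labelled Gata6 KO. After repeated quantile normalization the call was kept (adjusted p = 0.0377). Of 10 genes known as CREB targets 6 fell and 0 rose, with a median of -1.19. Irs2, an adaptor of the insulin receptor, and Pcsk1, a prohormone convertase, changed by -2.47 (SE 0.31) and -2.54 (SE 0.37). Rgs2 and Dusp1 changed by -1.84 (SE 0.19) and -1.75 (SE 0.26). Several of these targets are immediate-early or beta-cell genes as well, so the list is not specific to cAMP.

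**Figure D4:**
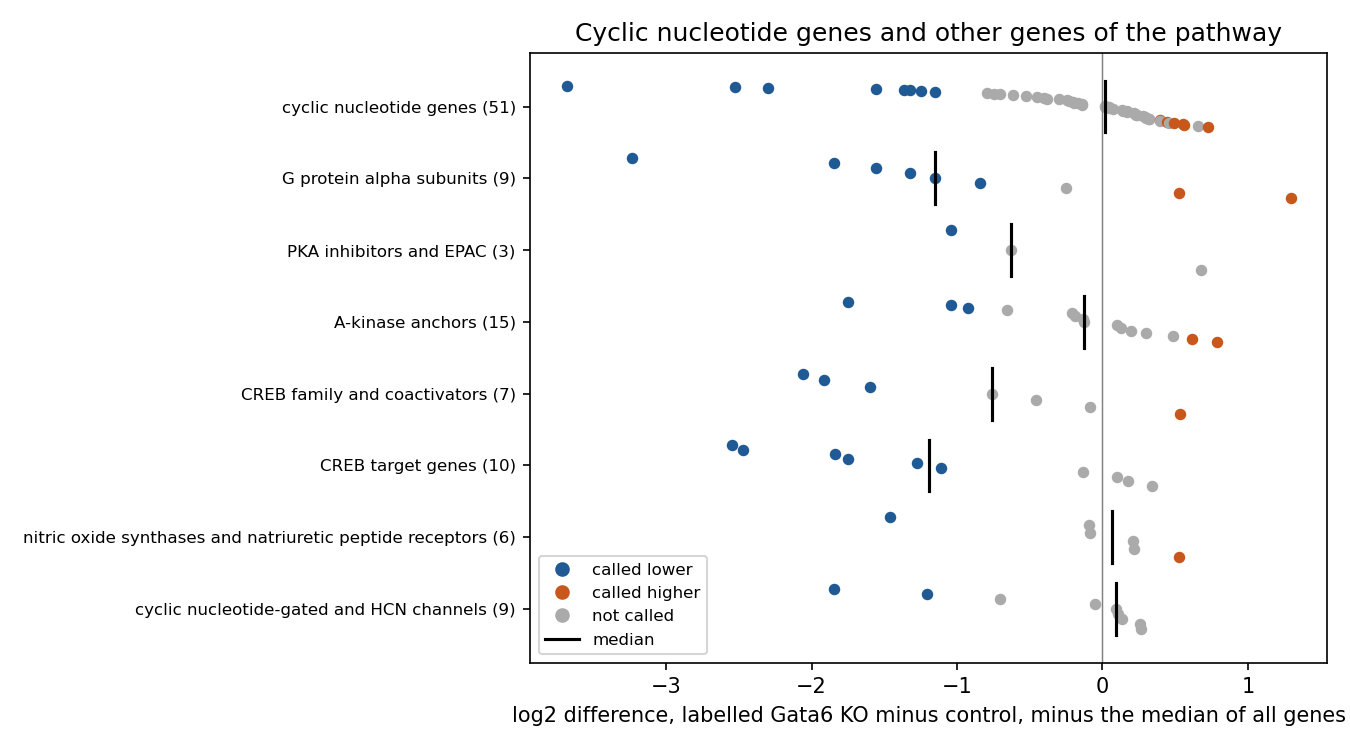
Relative log2 difference of each of the 51 cyclic nucleotide genes and of the genes of 7 other lists of the pathway. Each point is a gene, blue where called lower, orange where called higher and grey otherwise, and black bars are medians. The medians of the G protein and CREB target lists lie at -1.15 and -1.19, while that of the 51 genes lies at 0.02.

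Promoters were read for the called members with the most negative and most positive differences. Each is the 250 bases before the most upstream start site listed by RefSeq on GRCm38.p6, given 5′ to 3′ on the gene's strand. The letters searched, on both strands, were TGACGTCA (the cAMP response element), its core TGACG, which the full element contains, and AGATAA and TGATAA, both bound by GATA factors. Capitals mark every match. Shown are Pde5a and Prkar1b, which fell most among the genes with an entry, Adcy4 and Adcy7, which rose most, and Prkar1a, chosen after the search as the only member with the full response element. Gucy2c was not matched. Pde5a lies at chr3:122728908-122729157 on the plus strand and Prkar1b at chr5:139150704-139150953 on the minus strand. Adcy4 lies at chr14:55784073-55784322 on the minus strand, Adcy7 at chr8:88282742-88282991 on the plus strand and Prkar1a at chr11:109650699-109650948 on the plus strand.
Pde5a: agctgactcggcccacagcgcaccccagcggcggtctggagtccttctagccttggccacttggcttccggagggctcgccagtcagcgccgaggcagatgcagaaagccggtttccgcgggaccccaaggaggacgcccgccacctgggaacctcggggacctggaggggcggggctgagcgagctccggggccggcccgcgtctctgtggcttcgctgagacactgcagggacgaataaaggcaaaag
Prkar1b: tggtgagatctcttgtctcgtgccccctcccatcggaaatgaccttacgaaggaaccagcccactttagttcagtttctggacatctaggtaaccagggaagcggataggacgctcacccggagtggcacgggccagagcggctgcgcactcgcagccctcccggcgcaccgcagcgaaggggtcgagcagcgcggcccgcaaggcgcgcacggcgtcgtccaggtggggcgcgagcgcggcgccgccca
Adcy4: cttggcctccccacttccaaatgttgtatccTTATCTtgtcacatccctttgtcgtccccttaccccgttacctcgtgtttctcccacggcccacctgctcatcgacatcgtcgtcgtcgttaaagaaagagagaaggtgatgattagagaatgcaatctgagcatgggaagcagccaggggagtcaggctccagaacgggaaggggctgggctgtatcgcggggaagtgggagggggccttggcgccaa
Adcy7: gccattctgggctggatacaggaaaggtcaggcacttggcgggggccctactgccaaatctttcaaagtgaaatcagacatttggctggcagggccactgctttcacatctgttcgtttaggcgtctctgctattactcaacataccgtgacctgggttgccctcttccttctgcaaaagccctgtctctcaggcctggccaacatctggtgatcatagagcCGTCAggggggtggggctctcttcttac
Prkar1a: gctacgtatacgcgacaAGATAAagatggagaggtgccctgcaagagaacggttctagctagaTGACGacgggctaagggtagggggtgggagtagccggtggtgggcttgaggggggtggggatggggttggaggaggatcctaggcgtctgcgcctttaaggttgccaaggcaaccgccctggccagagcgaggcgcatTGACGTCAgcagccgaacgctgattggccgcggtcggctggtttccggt

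Of the genes that fell, only Pde5a and Prkar1b are shown, and neither window shown holds any of the letters searched. TGACG does occur in windows of Pde8a, Pde4b and Prkaca, which fell and are not shown. In all, 14 of the 40 members with windows held TGACG in at least 1 of them. The Adcy4 window holds AGATAA on the opposite strand, starting 219 bases before the start site, and the Adcy7 window TGACG on the opposite strand at 28 bases. The Prkar1a window holds TGACGTCA 49 bases before its start site, a second TGACG at 187 bases and AGATAA at 233 bases. Prkar1b has 5 listed start sites, and TGACG occurs in the window of another of them. Of the 51 genes 40 had windows, 80 in all, some of which overlap. TGACGTCA was in 1.25% of these windows against 1.55% of all 32851, and TGACG in 20% against 17.8%. AGATAA was in 11.3% against 9.99% and TGATAA in 6.25% against 7.94%. A match is a description of the letters and not a binding site.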

How the data were processed

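The deposited values are log2 signals of 41345 probe sets on 7 arrays, summarised by the authors with RMA in Transcriptome Analysis Console, per the submitters' processing notes, which give no versions. Base 2 is taken from RMA; no build of the authors' annotation is stated in the labels. No detection calls were used, so a low log2 signal may be background. Gene names came from GEO's annotation of the array. Those with 1 symbol (23521) were kept, and for each of 22180 genes the one with the highest mean, which is how Prkaca and Pde7a, each with 2 probe sets, were reduced. All 51 members had an identifier in the RefSeq gene table.

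Each gene was fitted with limma 3.58.1 in R 4.3.3 (lmFit, eBayes with trend), without covariates, two-sided, with Benjamini-Hochberg adjustment over all genes tested. The limma fit was tested on simulated data, drawn independently for each array and without a shift common to all genes. The number of arrays limits the precision, and p-values cover the spread between pools of animals. Members and lists were chosen with earlier results of these data known. Text names all called members and isozymes known from islets, and up to 4 members of each other list with the smallest p. Same-numbered arrays did not deviate together clearly (correlations 0.098, 0.004 and 0.115), so numbers were not treated as pairs. The labels name no batch. Figures were drawn with matplotlib 3.10.9.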

Additional observations from a re-analysis of the deposited data

Results flagged for a closer look

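Among the 51 members, array 2 labelled Gata6 KO stood apart from its group for Pde5a, at 4.24 against 2.68 to 2.75 on the other 3 arrays. Array 4 labelled Gata6 KO stood apart for Gucy1a1, at 1.91 against 2.85 to 2.89. The gap to the nearest array was 0.959 and 0.954 of the range of the group, past the critical value of Dixon's test for 4 samples. About 1 in 20 groups meets this by chance, and 51 groups were tested.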

How the results depend on the processing

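Of the 8 genes called lower, 6 kept their call under every alternative run: Pde5a, Prkar1b, Gucy2c, Pde8a, Pde4b and Prkar2b. The exceptions were Pde7b and Prkaca, whose values stand in the report. The number called lower was 10 after centring and after repeated quantile normalization, 19.6% of the members against 12.5% and 11.2% of all genes. None of the 6 rises kept its call under all alternatives, and no called gene changed sign. The number called higher was 0 after centring and after repeated quantile normalization (limma; 4 and 6 at an unadjusted p under 0.05), where 8.43% and 11% of all genes were called higher, 0 at an adjusted p under 0.01 and 0 with at least a 2-fold change. With only arrays of Xist above 4, an alternative added after seeing the data, it was 2. Leaving out each array in turn gave 2 to 7 genes higher and 7 to 9 lower. It was 2 without control array 1 or 2, 3 without control array 3 and 3 without array 4 labelled Gata6 KO. With the replicate number as a block 4 genes were higher and 9 lower, where 4 of 6 arrays correlated best with their own number. Signal near background limits the 19 members with the lowest means. It may also limit the size of falls that end near the array medians, such as those of Pde4b, Gucy2c, Prkar1b and Prkar2b. The same holds for Pde5a on arrays 1, 3 and 4 labelled Gata6 KO.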

Other observations

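Of 6 nitric oxide synthases and natriuretic peptide receptors 1 fell and 1 rose, against 7.36% and 17.4% of all genes, with a median relative difference of 0.06. Npr2, the receptor cyclase for C-type natriuretic peptide, read 2.89 to 3.20 on the controls and 1.20 to 2.01 on the arrays labelled Gata6 KO, a change of -1.46 (SE 0.23, adjusted p = 0.00132) that passed under every alternative run. Npr3, the clearance receptor, changed by 0.53 (SE 0.22, adjusted p = 0.0314), a call that was lost after centring (adjusted p = 0.116), after repeated quantile normalization (adjusted p = 0.0935) and on leaving out any control array or array 2, 3 or 4 labelled Gata6 KO.

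Among 9 measured ion channels that cyclic nucleotides gate, 2 fell and 0 rose, against 7.36% and 17.4% of all genes, with a median of 0.09. Both were HCN pacemaker channels. Hcn4 read 3.64 to 4.23 on the controls and 1.76 to 2.42 on the others and changed by -1.85 (SE 0.24, adjusted p = 2.24e-04), which passed under every alternative run. Hcn3 changed by -1.20 (SE 0.33, adjusted p = 0.0330), with overlapping groups, and its call was lost on leaving out control array 1 or 2 or array 1, 2 or 3 labelled Gata6 KO. The cAMP exporter gene Abcc4 measured -0.62 (SE 0.27, adjusted p = 0.234).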
